A study of Mus musculus with 14 samples.

Results

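The regions described here are narrow H3K27me3 sites in exons. They were chosen by 3 properties of the deposited list of H3K27me3 sites: a width over 200 bp and under 1000 bp, a centre in an exon of a protein-coding gene on chromosomes 1 to 19, and a distance of more than 1000 bp between that centre and any annotated transcript start. Of the 153983 sites of the list, 144903 were on these chromosomes, 92219 of them were narrow, and 85253 of those were far from a start. The centre was in an exon of a protein-coding gene for 4595 of these, which are the narrow exonic sites. Another 27710 were in introns of protein-coding genes, 46061 between genes and 6887 in exons or introns of other genes. Width, distance and the exonic centre are thus properties that were selected on and are not results.

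H3K27me3 was measured by ChIP-seq in immortalised mouse embryo fibroblasts (iMEF), in which a Cre-ER recombinase had removed part of the endogenous Ash2l gene and an introduced lentiviral construct supplied FKBP-HA2-ASH2L, human ASH2L with a degradable FKBP tag. All groups were of these cells, in the study mainly the clone NG3, so the groups stand for 1 selected clone. The 12 H3K27me3 libraries were in 6 groups of 2, namely control cells and cells exposed to dTAG-13, the compound that leads to degradation of the tagged protein, for 30 min or for 2, 4, 8 or 16 h. Of 2 input libraries, 1 was from the control and 1 from the 16 h treatment. These libraries and the list are those of the first H3K27me3 experiment of the study. A second H3K27me3 experiment has its own list, which was not used here. The list used combines all samples of the first experiment and holds positions only. No value per library and no comparison of treated with control cells was thus available for these sites. Intervals are 95% intervals that cover the counting of sites only, and neighbouring sites are not independent.

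H3K27me3 is set by Polycomb repressive complex 2 and is known for wide domains over promoters and bodies of repressed developmental genes. Exons are mostly short and richer in GC than the long introns around them. Coding exons carry the protein sequence, whereas the last exon of most genes also holds a long untranslated end. Nucleosomes, which carry the mark, are known to lie preferentially on exons.

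The sequence at the centre of some sites illustrates the range of composition. For coding centres in inner, last, first and single exons, the site with the highest ratio of observed to expected CpG among those of at least median width is shown, followed by the inner and the last coding site whose GC content was closest to the median. The last pair are the sites on exons 4 and 5 of Ash2l, to which the final paragraphs return. Each line gives 30 bases 5′ to 3′ on the strand of the gene (GRCm38.p6), all of them coding, with CpG in capitals.
Irx5, inner exon, chr8:92360680-92360709, plus strand: caCGaactatggctccttCGgacatcttca
Tbr1, last exon, chr2:61812041-61812070, plus strand: cccCGcagtactgCGgCGccaagtCGggct
Pde3b, first exon, chr7:114416352-114416381, plus strand: agacccCGgaggaggtccagctgCGtgtCG
Adra2a, single exon, chr19:54047510-54047539, plus strand: caacagctCGctgaaccctgttatctacac
Nedd9, inner exon, chr13:41338763-41338792, minus strand: atgcatcagacctttggccaacagaaactc
Nsg2, last exon, chr11:32017759-32017788, plus strand: ggaaggggacacttgctgtggCGcagggac
Ash2l, exon 4, chr8:25836026-25836055, minus strand: ccattgcaatgtgtgccatcacagtgggaa
Ash2l, exon 5, chr8:25834988-25835017, minus strand: gaCGtggcagtctCGaacacaggatgaaca

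The site in Tbr1, a T-box transcription factor of the developing cortex, held 67 CpG in 449 bp, and that in Irx5, an Iroquois homeobox factor, 28 CpG in 373 bp. Pde3b encodes a phosphodiesterase that degrades cyclic nucleotides, and its site held 69 CpG in 794 bp. Adra2a encodes an adrenergic receptor without introns. The site in Nedd9, which encodes a docking protein of focal adhesions, was close to the median of inner coding sites with a GC content of 50.8% and held 8 CpG in 490 bp.

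Narrow exonic sites lay in inner exons and in coding sequence more often than exonic bases do. To compare like with like, every exonic base of chromosomes 1 to 19 that was more than 1000 bp from a start was assigned to 1 transcript in the same way as the sites. These 65.8 Mb of eligible bases served as the background. Inner exons held 2613 of the 4595 sites, or 56.9% (95% interval 55.4 to 58.3%), and 30.7% of the eligible bases. Last exons held 1832 sites, or 39.9% (38.5 to 41.3%), and 63.0% of the bases. The share in inner exons was above that of the bases on 19 of 19 autosomes, and the share in last exons was above it on 0 of 19. Transcripts with 1 exon contributed 120 sites, 2.61% (2.19 to 3.11%) compared with 5.25% of the bases. Such transcripts also occur in genes with more exons, and 62 of the 120 sites were in transcripts without coding sequence. First exons held 30 sites, or 0.653% (0.458 to 0.930%), compared with 1.05% of the bases.

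Sites were denser in coding than in untranslated sequence. Coding sequence held 3308 sites, 72.0% (70.7 to 73.3%) compared with 36.4% of the bases, and its share was the higher on 19 of 19 autosomes. The 3′ untranslated sequence held 971 sites, 21.1% (19.98 to 22.3%) compared with 45.2% of the bases, and exons of transcripts without coding sequence held 283 sites, 6.16% (5.50 to 6.89%) compared with 17.4%. Only 33 sites were in 5′ untranslated sequence, 0.718% (0.512 to 1.01%) compared with 0.973% of the bases. Within coding sequence, position made little difference. Inner coding exons had 138 sites per Mb (133 to 144) and the coding part of last exons 140 (131 to 151), with overlapping intervals. The coding part of first exons had 98.5 sites per Mb (61.0 to 151) from 21 sites. The coding part of transcripts with 1 exon had 104 (70.7 to 148) from 31 sites. The 3′ untranslated part of last exons had 32.0 sites per Mb (29.9 to 34.1). In 3′ untranslated sequence and in transcripts without coding sequence, inner exons had more sites per Mb than last exons. This was not so in 5′ untranslated sequence, with 52.2 (33.5 to 77.7) from 24 sites in inner and 68.0 (25.0 to 148) from 6 sites in last exons. The 3′ untranslated sequence of inner exons had 73.4 (47.9 to 108) from 26 sites. Transcripts without coding sequence had 37.5 (27.3 to 50.1) in inner and 23.0 (19.7 to 26.8) in last exons. Introns had 33.6 sites per Mb (33.2 to 34.0) and sequence between genes 38.4 (38.0 to 38.7). Coding sequence thus had 4.12 times the site density of introns, and 3′ untranslated sequence 0.972 times. Over all exons, the density was 69.9 sites per Mb (67.9 to 71.9), 2.08 times that of introns, and above that of introns on 19 of 19 autosomes.

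**Figure D1:**
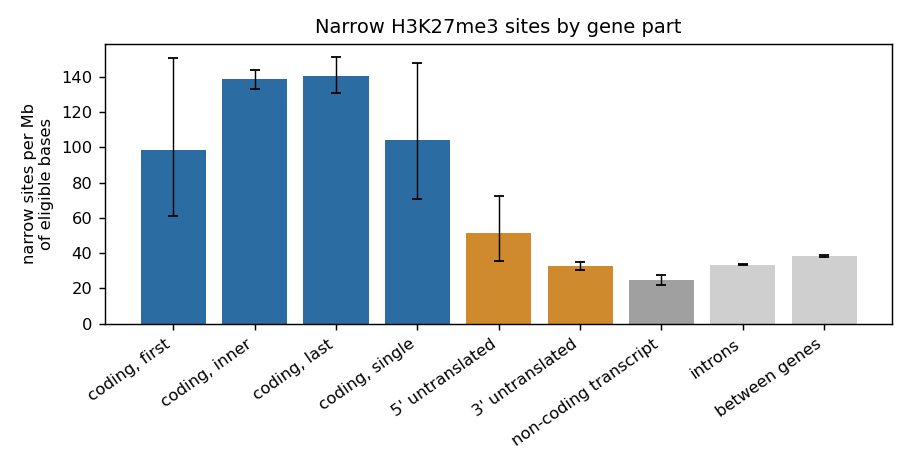
Narrow H3K27me3 sites per Mb of bases that were more than 1000 bp from a transcript start (vertical axis) by part of the gene, with exact 95% Poisson intervals. The 4 bars for coding sequence range from 98.5 to 140 sites per Mb, while the 3′ untranslated sequence (32.6), introns (33.6) and sequence between genes (38.4) lie close together.

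Along the coding sequence, sites were spread rather evenly. When each coding sequence was divided into 10 equal parts from start to stop codon, the density ranged from 122 sites per Mb in the last part (110 to 135) to 149 in part 5 (134 to 165). The first part, of which many bases are too close to a start to be eligible, had 127 (109 to 147).

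Around short coding exons, narrow sites were centred on the exon. For 20935 inner coding exons of at most 300 bp with no other exon within 2000 bp of their middle, the centres of all narrow sites were counted by distance from the middle of the exon. Within 100 bp of the middle there were 589 sites, or 147 sites per Mb (136 to 160). At 1000 to 2000 bp, there were 1409 sites at 34.2 per Mb (32.4 to 36.0), close to the level of all introns. The density was thus 4.30 times higher over the exon. It fell quickly with distance. At 200 to 300 bp it was 35.5 per Mb (27.7 to 44.8) on either side, and at 400 to 500 bp it was 25.0 (18.6 to 33.0) upstream and 23.0 (16.8 to 30.7) downstream. These last values were below the level at 1000 to 2000 bp.

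**Figure D2:**
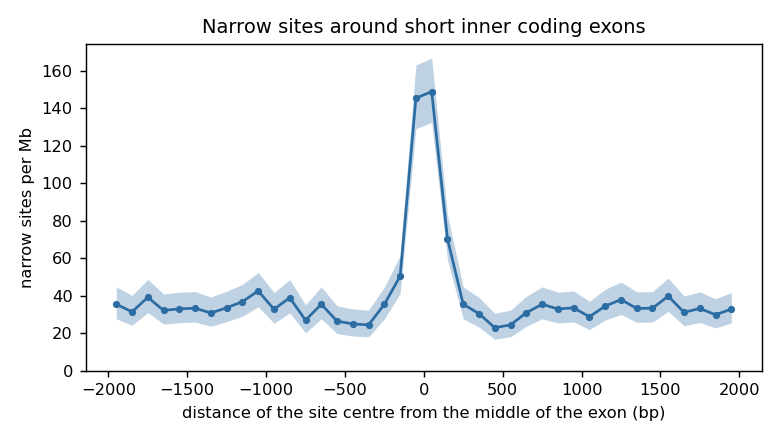
Density of narrow H3K27me3 sites (sites per Mb, vertical axis) by distance of the site centre from the middle of 20935 inner coding exons of at most 300 bp (horizontal axis, bins of 100 bp, negative values upstream). The shaded band is the exact 95% Poisson interval, and the density reaches 149 per Mb beside the middle of the exon and lies between 23.0 and 42.6 per Mb beyond 300 bp.

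Many sites were larger than the exon beneath them. Of the 1939 sites in inner coding exons of at most 300 bp, 1568 (80.9%) held the whole exon, whose median length was 166 bp while the median site width was 332 bp. The centre was within the central 50% of the exon for 1170 of these sites, or 60.3% (58.1 to 62.5%). The opposite held in 3′ untranslated sequence, where 74.2% (71.3 to 76.8%) of the sites lay entirely within their exon, which had a median length of 2605 bp. Over all narrow exonic sites, 37.2% (35.8 to 38.6%) lay entirely within the exon and 38.6% (37.2 to 40.0%) held it whole.

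Inner exons with a coding site were somewhat richer in GC than the other inner exons of the same transcript. Their median GC content was 52.5%, compared with a median of 51.7% for the other inner exons, and the exon with the site was the richer in 1444 of 2446 cases, or 59.0% (57.1 to 61.0%). The median difference was 0.980 percentage points. Inner exons with a site were also longer than the median of all other exons of the transcript in 69.5% (67.7 to 71.2%), but a longer exon offers more bases to a centre.

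Narrow exonic sites were richer in GC than their surroundings, and richer in GC and CpG than narrow sites in introns and between genes. Their median GC content was 50.2% (50.0 to 50.3%), compared with 44.6% (44.3 to 44.8%) in flanks of equal width, and the site was above its flanks in 86.7% (85.7 to 87.7%). Sites in introns had a median of 47.9% (47.8 to 47.9%) and sites between genes 47.70% (47.65 to 47.74%). On 19 of 19 autosomes, the median of exonic sites was above that of intronic sites. The eligible bases themselves contained 45.8% GC in exons and 42.4% in introns. Coding sites had a median of 51.0% (50.8 to 51.2%) and 3′ untranslated sites 48.3% (47.9 to 48.7%), compared with 50.9% and 42.8% GC of the respective bases. These values of sites and bases are not of the same sequence, since the GC content of a site is that of its whole width, of which a median of 64.8% lay in the host exon for coding sites.

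The ratio of observed to expected CpG had a median of 0.282 in exonic sites and 0.185 in intronic sites. Most narrow exonic sites were thus CpG-poor. A GC content of at least 50% with a CpG ratio of at least 0.6, as in CpG islands, was reached by 141 sites, or 3.07% (2.61 to 3.61%), compared with 0.166% (0.124 to 0.221%) of the intronic sites. These 141 sites were in 135 genes. Of the 141 sites, 133 were coding, and 7 were in the Hox genes and other developmental transcription factors listed here. Of all 4595 narrow exonic sites, 3 were in these Hox genes and 47 in these other factors. The 3 sites of highest GC content were in coding exons of Shroom3, a regulator of epithelial cell shape (74.6%), Tbr1 (74.6%) and Smad6, an inhibitor of BMP signalling (73.8%). The 3 of lowest GC content were in last exons of Mia2 (26.7%), Itsn2 (28.1%) and Zfp53 (29.8%), which encode proteins of secretory cargo export and of endocytosis and a zinc finger protein, and held 0, 1 and 0 CpG.

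The higher density in coding sequence was present at every level of GC content. Eligible bases of exons and introns were divided into 5 groups of equal size by the GC content of the 500 bp around them. In the lowest group, up to 37.2% GC, coding bases had 15.8 sites per Mb (11.1 to 21.8) and introns 2.50 (2.27 to 2.75), a ratio of 6.33. In the highest group, above 48.0% GC, coding bases had 168 (160 to 175) and introns 73.9 (72.6 to 75.3), a ratio of 2.27. The ratio decreased from group to group, through 5.01, 3.87 and 3.45. For 3′ untranslated bases, the ratio to introns was 1.57 in the lowest group and 0.740 in the highest. Standardised to introns of the same GC content in these 5 groups, the density was 2.66 times that of introns in coding sequence, 0.903 times in 3′ untranslated sequence and 1.67 times in all exons. In bins of 2%, chosen after the data were seen, these ratios were 3.05, 0.931 and 1.81. Coding sequence also has fewer repeats. Outside annotated repeats, the ratio of all exons to introns was 2.05.

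**Figure D3:**
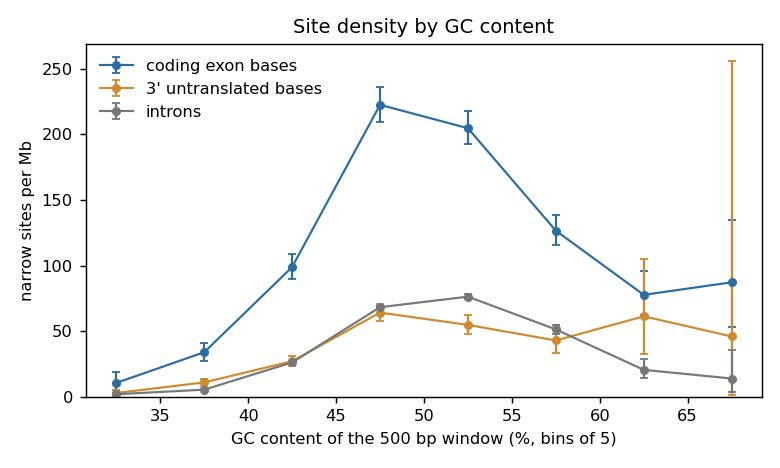
Narrow H3K27me3 sites per Mb (vertical axis) by GC content of the 500 bp window around each base (horizontal axis, bins of 5%), for coding bases, 3′ untranslated bases and introns, with exact 95% Poisson intervals. Between 45 and 50% GC, coding bases have 222 sites per Mb, 3′ untranslated bases 64.1 and introns 68.3, and coding bases have the highest value in each bin.

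Within the chosen range of widths, the excess of sites in coding sequence decreased with the width of the sites. With the same limit on the distance from a start, the ratio of the density in coding sequence to that in introns was 5.80 (5.44 to 6.17) for sites of 201 to 299 bp, 4.15 (3.92 to 4.39) for 300 to 499 bp and 2.93 (2.73 to 3.15) for 500 to 999 bp. Outside the chosen range, it was 4.31 (3.98 to 4.67) for sites of the minimum width of 200 bp and 2.34 (1.95 to 2.82) for sites of 5 kb or more.

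The exonic sites were more isolated than the intronic ones. The nearest other site of any width was a median of 1153 bp away (1070 to 1259), compared with 564 bp (555 to 576) for intronic sites. The nearest site of 1 kb or more was a median of 13280 bp away (11991 to 14726), compared with 4302 bp (4158 to 4461). For coding sites this distance was 18134 bp (16405 to 20079) and for 3′ untranslated sites 5559 bp (4375 to 6677), so the latter resembled intronic sites in this respect too. More than 50 kb from any site of 1 kb or more were 30.3% (29.0 to 31.7%) of the exonic and 16.5% (16.1 to 17.0%) of the intronic sites. Conversely, 37.1% (35.7 to 38.5%) of the exonic sites had such a wide site within 5 kb.

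A narrow exonic site was found in 2868 of 19628 genes with eligible exonic bases, which is 14.6% (14.1 to 15.1%) and the background for the gene classes below. Of these genes, 1970 had 1 site, 534 had 2 and 364 had 3 or more, and the last group held 33.9% of all sites. The sites lay in 4285 different exons, of which 240 held more than 1. The genes with a site had more eligible exonic sequence, with a median of 4.00 kb compared with 2.28 kb in the others. In 30 sites the centre was in exons of more than 1 protein-coding gene, and in 11 of these in exons of both strands, so that their assignment is uncertain.

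Genes with a narrow exonic site had H3K27me3 at their promoters more often than other genes. Within 1 kb of a start, 63.4% (61.6 to 65.2%) of them had a site of any width, compared with 26.5% (25.8 to 27.2%) of the other eligible genes. Overlap with this range was counted, and narrow exonic sites centred just beyond it can overlap it too. For sites of 1 kb or more, which cannot be narrow exonic sites, the shares were 44.8% (43.0 to 46.7%) and 16.7% (16.1 to 17.2%). The difference was present in each of 3 equal groups of genes by eligible exonic length, with 64.3% and 28.5% in the shortest and 63.4% and 23.1% in the longest. Even so, 1049 of the genes had a narrow exonic site and no listed site at a promoter.

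The 12 genes with the most narrow exonic sites had 5.61 to 108 kb of eligible exonic sequence each, and several of them encode very large proteins. Ttn, which encodes the sarcomere protein titin, had 38 sites in 31 exons, 37 of them coding, at 0.352 sites per kb of eligible exonic sequence. Ryr3 and Ryr2, genes of calcium release channels, had 17 and 12 sites at 1.00 and 0.499 per kb. Cacna1e, a voltage-gated calcium channel gene, had 16. Among genes of motile cilia, Dnah5 had 15 sites and Dnah9 had 13, all coding and each in an exon of its own, and Hydin had 13. Csmd2, which encodes a large membrane protein of the nervous system, had 13 sites, Grin2b, an NMDA receptor gene, 11, and Dscam, a neuronal adhesion gene, 10. The cell death kinase gene Dapk1 had 10. All of these also had wide sites, from 5 in Cacna1e to 53 in Hydin, and sites of any width covered a larger share of exonic than of intronic bases in each except Grin2b. In Csmd2, 60.7% of exonic and 7.24% of intronic bases were covered, in Dscam 75.7% and 11.96%, and in Grin2b 36.1% and 39.1%. The last of the 12 genes, Cdc27, had the least eligible exonic sequence and the highest number of sites per kb (1.60), with 9 sites and no wide site.

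Within 1 exon, the most sites were found in 2 very long coding exons. Exon 309 of 347 of Ttn (chr2:76736064-76753169) and exon 5 of 5 of Ahnak (chr19:9001699-9019196), which encodes a giant scaffold protein, held 8 sites each, all coding. The last exons of Ccdc187, Tmem72 and Grin2b held 5 each. Those in Tmem72 and Grin2b were all 3′ untranslated, and 4 of those in Ccdc187 were.

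The 26 gene classes examined differed in the number of sites per Mb of eligible exonic sequence. The highest densities were those of keratins, of glutamate, GABA and glycine receptors, and of dynein heavy chains. The density over all exons was 69.9 per Mb. The 95% interval was above this value in 10 classes, below it in 3 and included it in 13. Since coding sequence had 138 sites per Mb over all genes and the classes differ in their share of coding bases, coding sites were also set against eligible coding bases. The interval was then above 138 in 10 classes, below it in 3 and included it in 13. The classes above were those named for all exons, with solute carriers (201 coding sites per Mb, 161 to 248) in place of Adamts and Mmp proteases (204, 125 to 315), and the classes below were unchanged. The classes were defined by gene symbols. Genes of the keratins, the intermediate filaments of epithelia, had the highest density, 434 per Mb (299 to 610), with a site in 22 of 51 genes (43.1%, 30.5 to 56.7%) and up to 3 in Krt33b. Glutamate, GABA and glycine receptors followed with 273 per Mb (216 to 342) and 30 of 48 genes (62.5%, 48.4 to 74.8%), and had the highest density within coding sequence, 668 per Mb (508 to 861), ahead of keratins with 546 (350 to 812). Dynein heavy chains had 258 per Mb (196 to 332) and 12 of 18 genes, with 59 sites that were all coding. Calcium and sodium channels had 237 per Mb (181 to 303) and 21 of 39 genes. Myosin heavy chains had 178 per Mb (130 to 237) and 15 of 39 genes, with 9 sites in Myh1, a myosin of fast muscle fibres. Potassium channels had 158 per Mb (120 to 204) and 36 of 90 genes, with 5 sites in Kcnma1.

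Of the genes of matrix and adhesion, collagens had 137 sites per Mb (96.98 to 188) with 7 in Col6a6, cadherins outside the protocadherin clusters had 128 (93.6 to 172) with 8 in Fat3, and Adamts and Mmp proteases had 116 (75.2 to 171) with 5 in Adamtsl1. Within coding sequence, collagens had 217 (152 to 300.0) and these cadherins 223 (162 to 301). The intervals of clustered protocadherins (123.4 per Mb, 69.1 to 204), mucins, laminins and fibrillins, and integrins included the value of all exons. The most sites of these classes were in Pcdhac1 (2), Muc5b (3), Lama3 (3) and Itgb4 (2).

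Developmental regulators are the best known targets of Polycomb complexes, but sites of 1 kb or more and sites near a start were not counted here. Developmental transcription factors other than Hox genes had 113 sites per Mb (82.8 to 150) and a site in 29 of 135 genes (21.5%, 15.4 to 29.1%), and were above the value of all exons. Within coding sequence they had 289 sites per Mb (198 to 408). Hox genes had 3 sites in 38 genes, or 62.7 per Mb (12.9 to 183), 1 of them in Hoxa2. Wnt and Frizzled genes had 94.5 (43.2 to 179), with 2 sites in Wnt2, and axon guidance genes 90.5 (63.0 to 126), with 5 in Plxna4. The intervals of Hox, Wnt and Frizzled, and axon guidance genes included 69.9, as did those of adhesion G protein-coupled receptors (3 sites in Adgrg3), solute carriers (4 in Slc6a2) and histone methyltransferases and demethylases (3 in Kmt2c).

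Below the value of all exons were olfactory and vomeronasal receptors, genes of the mitochondrial ribosome and complex I, and Zfp genes. Olfactory and vomeronasal receptors had 20.03 sites per Mb (15.7 to 25.2) and a site in 60 of 1316 genes (4.56%, 3.56 to 5.82%), with 2 sites in Olfr560, and 22 of the 72 sites were coding. Coding bases made up 11.4% of their eligible bases. These genes are close copies of each other, and how reads that fit several copies were treated was not tested. Genes of the mitochondrial ribosome and of complex I had 1 site in 111 genes, in Mrpl32, or 4.76 per Mb (0.121 to 26.5). Zfp genes had 51.9 (41.1 to 64.7) and a site in 60 of 382 genes (15.7%, 12.4 to 19.7%), with 4 in Zfp532. Among other genes that every cell uses, proteasome genes had 68.6 sites per Mb (25.2 to 149) and a site in 11.1% of genes (4.84 to 23.5%), with 2 sites in Psmc1, close to all exons and all genes. No site was found in 18 histone genes, which allows up to 169 per Mb. The class of ribosomal protein genes had 47.5 per Mb (12.9 to 122). Its symbols matched 3 genes with a site, of which Rps6kb1 and Rps6kc1 are named after the S6 kinases and only Rps9 encodes a ribosomal protein.

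**Figure D4:**
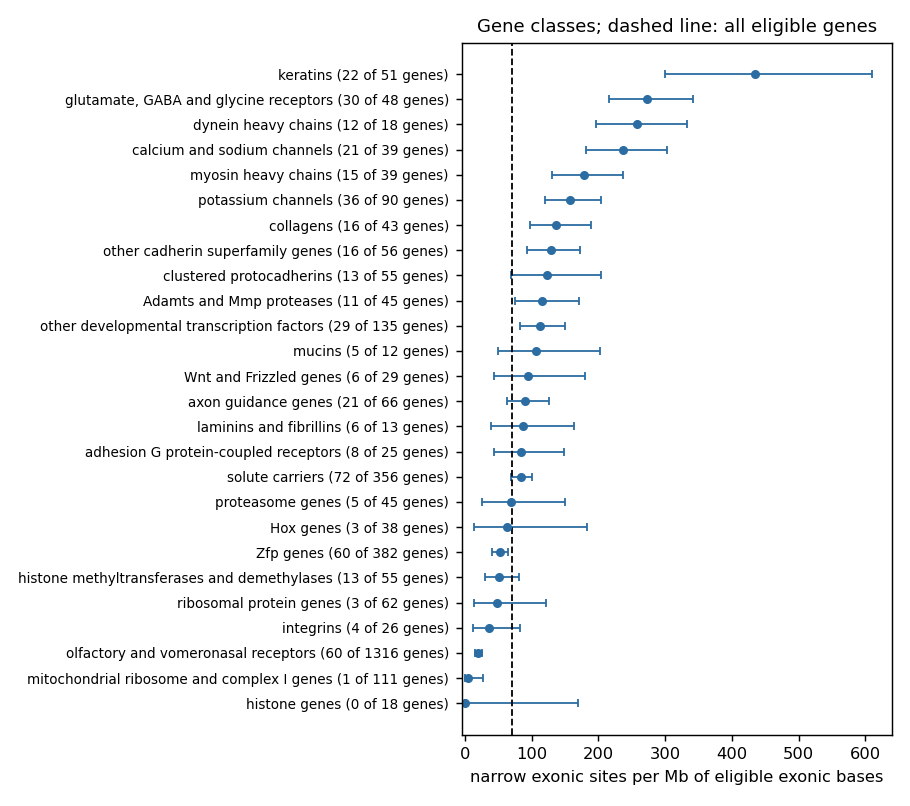
Narrow exonic sites per Mb of eligible exonic bases (horizontal axis) in 26 gene classes (vertical axis, with the number of genes that had a site), as points with exact 95% Poisson intervals. The dashed line is the value of all eligible genes, 69.9 per Mb, and the classes range from 434 for keratins to 0 for histone genes.

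In some genes without wide sites, at least 50% of the exons were overlapped by a site. These genes were selected after their values had been seen, so what follows is a description without a test. The selection required at least 5 exons in the transcript with the longest coding sequence, at least 50% of the exons overlapped by a site, no site of 1 kb or more, at least 1 narrow exonic site, and a covered share of exonic bases at least 4 times that of intronic bases. It was met by 20 of the 2228 genes with at least 5 exons and a narrow exonic site. These 20 genes held 62 sites, or 1.35% of all narrow exonic sites. Of these genes, Cfl1, Lhx9, Myl10 and Trim42 had 1 narrow exonic site each, and the exons of Cfl1 (3 of 6) were overlapped by a single site. Cdc27, which encodes a subunit of the anaphase-promoting complex, had a site on 11 of 19 exons. Of its 10 sites, 9 were narrow exonic sites, and each of the 10 overlapped an exon. The 9 narrow exonic sites had a low GC content, with a median of 35.8% and a range of 32.0 to 40.5%, whereas the remaining site, on exon 1, had 65.4%. Igsf3, an immunoglobulin superfamily gene, had sites on 9 of 11 exons, which covered 65.3% of exonic and 2.53% of intronic bases. Ssbp3, which encodes a cofactor of LIM-homeodomain proteins, had sites on 13 of 18 exons, St13, a chaperone cofactor gene, on 7 of 12, and Cpeb1, an mRNA-binding protein gene, on 7 of 12.

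Ash2l, the gene whose human protein was introduced into these cells, was among the 20. Sites overlapped 12 of the 16 exons of its transcript, and each of its 10 sites overlapped an exon. Sites covered 44.2% of the exonic and 10.7% of the intronic bases. Of the 10 sites, 6 were narrow exonic sites, all coding, with widths of 307 to 401 bp and a GC content of 35.6 to 49.8%. The site on exon 4 was at chr8:25835870-25836211, 342 bp wide, and held the whole exon of 89 bp, whose middle was 3.5 bp from that of the site. The site on exon 5 (chr8:25834847-25835158, 312 bp) was centred 4.5 bp from the middle of its exon of 95 bp. The nearest site of 1 kb or more was 19.97 to 38.5 kb away from the 6 sites. The study deleted exon 4 of the endogenous gene in these cells, and whether its exon 4 is the exon with this number in the transcript used here was not tested.

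The cells also carried sequence of FKBP12 in the construct and the hormone-binding part of an oestrogen receptor in Cre-ER. In Fkbp1a, which encodes FKBP12, 2 of 4 exons had a site, both of them narrow exonic sites (343 and 384 bp), and sites covered 17.4% of exonic and 2.78% of intronic bases. In Esr1, which encodes an oestrogen receptor, 5 of 10 exons had a site and 4 sites were narrow and exonic, in exons 6, 7, 9 and 10. They covered, with the other sites of the gene, 26.1% of exonic and 0.783% of intronic bases. Whether reads of the introduced sequences were aligned to the exons of these 3 genes was not tested.

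**Figure D5:**
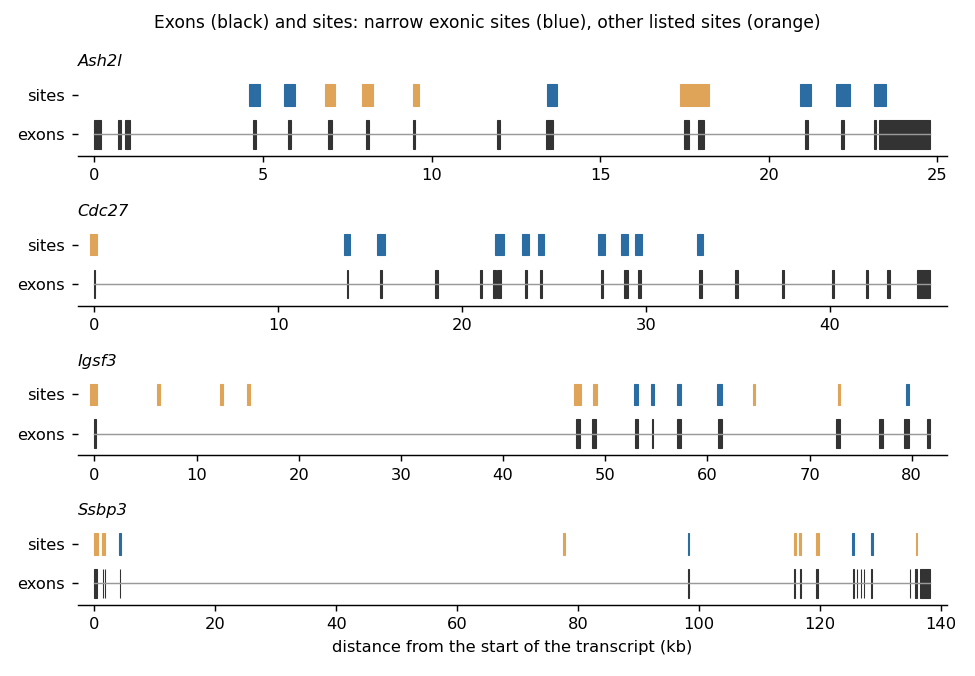
Exons (black) and H3K27me3 sites of any width (blue, narrow exonic sites; orange, other listed sites) of 4 genes, by distance from the transcript start in kb (horizontal axis), drawn to scale. Sites stand over 12 of 16 exons of Ash2l, 11 of 19 of Cdc27, 9 of 11 of Igsf3 and 13 of 18 of Ssbp3, and each site of Ash2l and Cdc27 overlaps an exon.

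At the limits of the selection, sites just inside and just outside had the following GC content. Exonic sites of 201 to 210 bp numbered 191, with a median GC content of 50.0%, and those of 200 bp numbered 932, with the same median. There were 19 sites of 990 to 999 bp (49.0%) and 10 of 1000 to 1009 bp (50.9%). At 1001 to 1100 bp from a start there were 72 sites (50.5%) and at 901 to 1000 bp 62 (51.6%).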

How the data were processed

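ChIP-seq reads were aligned to mm10 (GRCm38.p6) with BWA, filtered with samtools, and broad peaks were called with MACS by the authors, per the paper's methods and the submitters' processing notes. Versions, thresholds and the rule for combining peaks are not given in the sources used here. The deposited list holds the chromosome, start and end of each site over all samples. It was read as counted from 0 and is printed as counted from 1. It had 0 columns with values per library, so no test was made. Read depth per library is not in the list, and the methods give only a planned minimum.

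Bases were read from GRCm38.p6, and exons and starts were taken from GENCODE M21 (the study used M25). A base of several transcripts was assigned to 1 of them, preferring protein-coding type, then the longest coding sequence, then the longest exonic length. Introns were bases of protein-coding genes outside all exons. Shares have Wilson intervals, densities exact Poisson intervals, and medians binomial order-statistic intervals, at 95%. Functions were tested on simulated data (Python 3.11.15, numpy 2.4.6, pandas 2.3.3, scipy 1.17.1).

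The rule for named items took the 12 genes and 5 exons with most sites, the 3 sites of highest and of lowest GC content, and the leading gene of each class, of which 1 is not reported here. Narrow exonic sites, gene classes and rules were chosen with earlier results of these data known, and the genes with at least 50% of exons overlapped after their values were seen. Alternatives were other limits of width and distance, other definitions of exons, and GC content. The densities of gene classes within coding sequence and the comparison with other inner exons were added after seeing the data. Sequences of untranslated regions were not printed.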

Additional observations from a re-analysis of the deposited data

Results flagged for a closer look

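The comparisons above used chromosomes 1 to 19. The list also held 9080 sites outside these chromosomes, of which 8965 were on the X chromosome and 6426 were over 200 and under 1000 bp wide. They were not assigned to exons here.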

How the results depend on the processing

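Under each of 7 other settings of the selection, coding sequence and inner exons held a larger share of the sites than of the bases, and last exons and 3′ untranslated sequence a smaller one. Of 78 values, 41 stayed within the interval of the reported value (within 1.5 times for the number of sites) and 37 did not. With only sites of at least 500 bp, 1257 sites remained, of which 48.4% were in inner, 47.4% in last and 1.11% in first exons, 66.5% coding and 25.0% 3′ untranslated, with a density ratio of exons to introns of 1.61 and 5.24% of genes. With at least 50% of the site in exons, 47.1% were in inner and 48.9% in last exons, 66.4% coding and 25.6% 3′ untranslated. The ratio was 1.69, with the density of introns left unchanged, and 12.9% of genes had a site. With transcripts of protein-coding type, 59.5% were in inner exons and 77.5% coding, at a median GC content of 50.3%, a ratio of 2.37 and 13.8% of genes. Over 5 kb from every site of 1 kb or more, 2891 sites remained, 58.7% in inner exons, 77.1% coding and 17.4% 3′ untranslated, at a GC content of 49.7%. The ratio was 2.76, and 9.97% of genes had a site. This limit was set on sites but not on bases, and it removed 52.6% of intronic and 37.1% of exonic sites. Over 2000 bp from a start, 0.199% were in first exons, at a ratio of 2.19 and 14.1% of genes. With protein-coding starts only, 2.44% were in first and 37.8% in last exons, at a ratio of 1.99 and 15.8% of genes. With sites of 200 bp included, 16.9% of genes had a site. For the 4096 centres with the same exon position in every transcript, 58.8% were in inner exons, compared with 33.8% of such bases. The density ratio was 1.67 within 5 equal groups of GC content and, in alternatives chosen after seeing the data, 1.81 within bins of 2% and 2.05 outside repeats. Without the 20 genes with at least 50% of exons overlapped, also chosen after seeing the data, no value left its interval. The cause of these differences was not tested. No paired analysis was possible because libraries have no values of their own here, which also meant that leaving out a replicate could not be tried. A longer list from more or deeper libraries could hold other sites.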
